A study of Mus musculus with 3 samples.

Results

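The genes described here encode the machinery that makes cholesterol and fatty acids and the factors that control it, measured by RNA-seq in 3 libraries of mouse splenic T lymphocytes. They were chosen by name, as 36 listed genes among the 44788 symbols of the count table, and were grouped by role into 5 regulators, 7 enzymes of the mevalonate route, 11 enzymes from squalene to sterols, 8 fatty acid enzymes and 5 genes of the liver X receptors (LXR) and cholesterol efflux. Of these, 35 stood in the table under the listed symbol and Msmo1 stood under its older symbol Sc4mol. The T cells came from the spleens of female BALB/c mice of 6 to 8 weeks. They were taken with beads against CD90.2 (Thy1), cultured in medium with 2% serum and exposed for 15 h to LZ-8, an immunomodulatory protein of the fungus Ganoderma lucidum. All 3 libraries carry that one treatment and form 1 group. Untreated cells were not analysed here, so none of the levels can be read as an effect of LZ-8, and the comparisons lie between genes within a library and between the libraries. Whether each replicate had its own mouse or culture is not stated in the labels, and their spread may therefore be technical. The labels give neither a dose nor a purity after the bead step.

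SREBP-1 and SREBP-2 (genes Srebf1 and Srebf2) are transcription factors held in the membrane of the endoplasmic reticulum by the escort protein Scap. When membrane sterol is plentiful, the Insig proteins retain Scap there. When sterol is scarce, Scap carries the SREBPs to the Golgi, where proteases release the active part. SREBP-2 is best known for driving cholesterol synthesis and SREBP-1 for fatty acid synthesis. For cholesterol, LXRs act in the opposite direction to SREBP-2, sensing oxysterols and turning on cholesterol export. T cells that enter growth and division are known to need this pathway for new membrane.

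Transcripts of the regulators and of the mevalonate and sterol enzymes lay mostly above the median of the tested genes. Those of the fatty acid enzymes lay on both sides of it, 4 of 8 above, and those of the export genes were low. The highest members per length were Acly, Srebf2 and Fasn, and the lowest were Abca1, Fads2 and Nr1h3. Levels between genes are compared as CPM (counts per 1000000 counts of the library) divided by the kilobases of annotated exon, here called CPM per kb. Over all 12812 tested genes with an exon length the median was 8.27 CPM per kb. The median member reached 13.3 CPM per kb, and 24 of the 36 members lay above the median of the tested genes. The members spanned 0.105 to 105.9 CPM per kb. Together they held 0.440 ± 0.00532% of all counts (SD, n = 3). Fasn, Srebf2 and Acly alone made up 48.9 ± 0.255% of the members' reads.

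**Figure D1:**
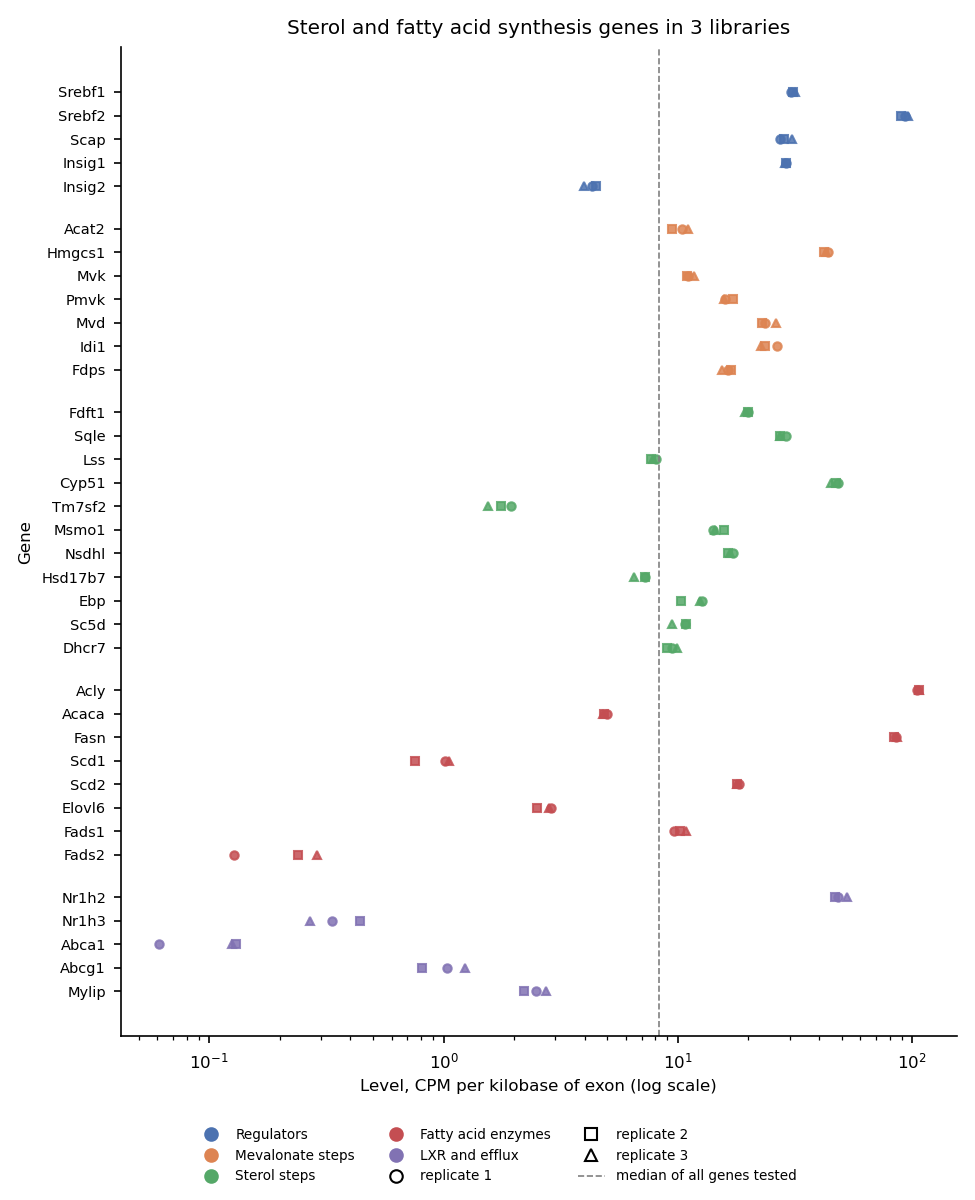
Each row is a gene and each symbol is its level in 1 library, in CPM per kilobase of exon on a log axis, with colour for the role. The dashed line is the median of all genes tested, 8.27 CPM per kb. The regulators, mevalonate and sterol genes lie mostly to its right. Fads2, Nr1h3 and Abca1 lie far to its left, with the widest spread between libraries.

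The libraries held 12669690 to 19041670 counts. In replicates 1, 2 and 3 the highest level still allowed by 0 counts is 0.158, 0.237 and 0.204 CPM, a limit that, like the intervals given later, covers counting error only. The cell type markers matched the label. The 6 T cell markers summed to 2216 to 2328 CPM, and Cd5 was the highest of them in counts. The 6 B cell markers summed to 16.7 to 18.5 CPM. The 6 dendritic cell markers summed to 9.72 to 11.8 CPM, most of it Zbtb46, with Clec9a at 0 in every library.

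Promoter letters were examined because this pathway is known for shared control by SREBPs with the partner factor NF-Y. RefSeq promoter windows (GRCm38), from 250 bases before to 50 bases after an annotated start, were found for 29 of the 36 members, 38 windows in all. Fdps, Fdft1, Sqle, Scd1, Scd2, Fads1 and Abcg1 had none in the table. For 31 of the 38 windows the bases after the start also lie in a GENCODE transcript of the gene on the same strand. The bases before the start, cut to end before the GENCODE gene start where that lies further upstream, are shown for 4 genes at different points of the pathway: the regulator Srebf2 (chr15:82147019-82147180, plus strand), the feedback gene Insig1 (chr5:28071162-28071362, plus strand), the mevalonate enzyme Hmgcs1 (chr13:119690101-119690350, plus strand) and the efflux gene Abca1 (chr4:53159896-53160145, minus strand). Capitals mark matches to the sterol regulatory element core, the E-box and the CCAAT box, which reads ATTGG where it lies on the opposite strand.
Srebf2: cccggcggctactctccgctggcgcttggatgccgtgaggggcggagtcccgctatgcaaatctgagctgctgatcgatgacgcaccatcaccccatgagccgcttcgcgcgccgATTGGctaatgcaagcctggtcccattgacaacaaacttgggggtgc
Insig1: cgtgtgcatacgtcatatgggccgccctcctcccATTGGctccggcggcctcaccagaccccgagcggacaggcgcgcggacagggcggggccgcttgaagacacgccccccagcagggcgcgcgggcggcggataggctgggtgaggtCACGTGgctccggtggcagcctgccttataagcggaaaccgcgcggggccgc
Hmgcs1: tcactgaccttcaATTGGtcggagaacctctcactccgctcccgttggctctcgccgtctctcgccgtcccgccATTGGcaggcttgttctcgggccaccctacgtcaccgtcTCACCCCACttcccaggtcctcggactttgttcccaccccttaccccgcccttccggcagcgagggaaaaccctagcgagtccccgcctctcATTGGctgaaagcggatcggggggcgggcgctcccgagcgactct
Abca1: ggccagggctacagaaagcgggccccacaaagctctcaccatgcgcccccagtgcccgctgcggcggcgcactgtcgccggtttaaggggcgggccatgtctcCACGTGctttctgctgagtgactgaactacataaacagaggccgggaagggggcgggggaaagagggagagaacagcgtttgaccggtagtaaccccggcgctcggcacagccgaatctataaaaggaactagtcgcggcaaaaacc

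Each motif was searched on both strands, and no match overlapped another except for a pair of CCAAT boxes in Fasn. The CCAAT box, the letters bound by NF-Y, was found in the windows of 21 of the 29 members (72.4%), against 41.1% of all 27025 genes in the promoter table. It stood in 9 of 9 sterol genes with a window and in 5 of 6 mevalonate genes. Among the other groups it stood in 4 of 5 regulators, 2 of 5 fatty acid genes and 1 of 4 LXR and efflux genes. Per window the share was 57.9% of 38 for the members and 37.4% of all 32851 windows. Hmgcs1 had 4 copies, starting at 237, 176 and 45 bases before and 11 bases after the start. The sterol regulatory element core, spelled TCACNCCAC, matched in 1 member, Hmgcs1, at 137 bases before the start, between the CCAAT boxes printed above. That is 3.45% of the 29 members, against 1.44% of all genes. Per window it is 2.63% for the members and 1.24% of all windows. The E-box, spelled CACGTG, was found in Abca1, Dhcr7, Hsd17b7, Insig1, Sc5d and Scap, 6 of 29 members (20.7%) against 8.09% of all genes. The GC box, spelled GGGCGG and bound by Sp1, was found in 79.3% of the members and 38.2% of all genes. These shares of all genes include genes that were not tested here, while 34 of the 36 members were. No share over tested genes alone was computed, so an excess among the members cannot be called particular to this pathway. The LXR direct repeat, 2 half-sites spelled AGGTCA with 4 bases between them, was in none of the member windows. It was in only 5 of all 32851 windows (0.0152%). At so rare an exact spelling, its absence from 38 windows cannot decide whether the members have LXR sites. A match is a run of letters, and a missing match says only that those letters are not in the window. The 21 members with a CCAAT box had a median level of 16.2 CPM per kb and the 8 without one 3.80 CPM per kb. Most of those 8 were fatty acid or LXR and efflux genes, the groups with the lowest medians. The box and the group therefore cannot be told apart here. For the E-box the medians were 9.88 CPM per kb in the 6 members with it and 14.7 in the 23 without, and for the GC box 11.8 in 23 and 10.6 in 6. None of these differences was tested.

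**Figure D2:**
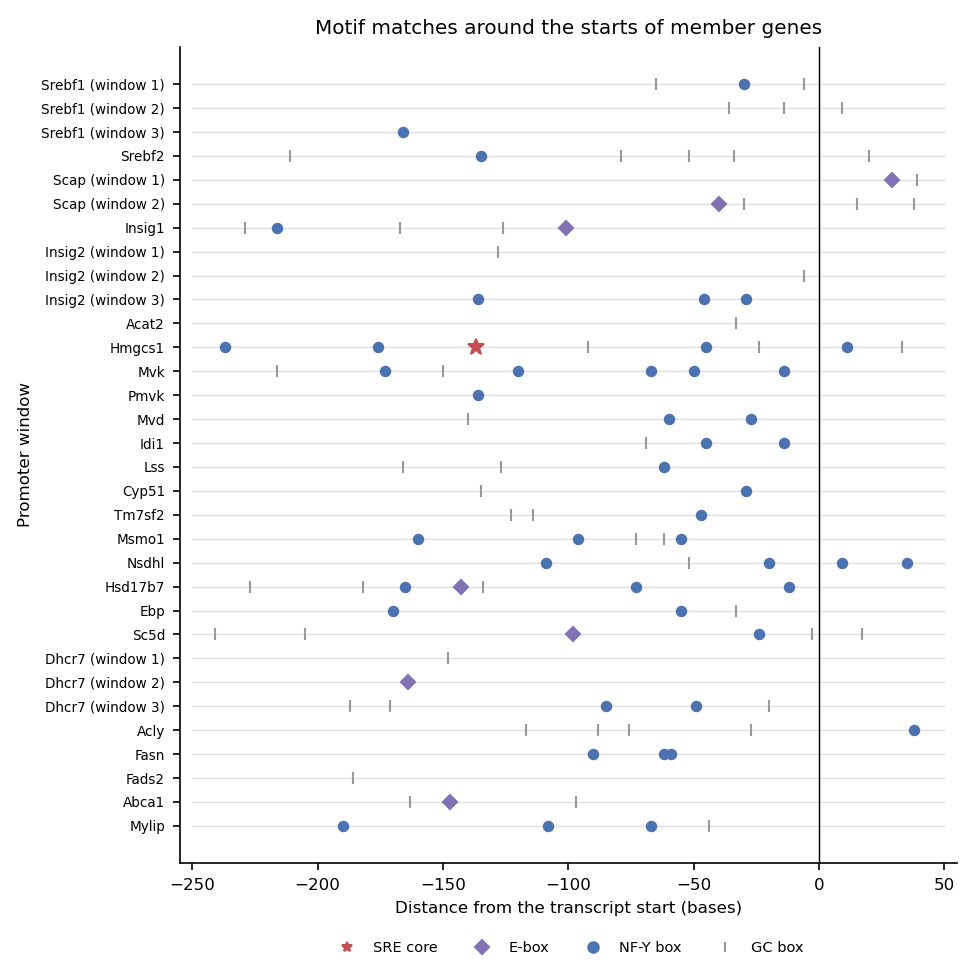
Each row is a promoter window of a member gene with at least 1 match, and symbols give the first base of each match as the distance from the annotated transcript start in bases. Circles (NF-Y box) are CCAAT boxes, diamonds are E-boxes, the star is the sterol regulatory element core and ticks are GC boxes. CCAAT boxes appear in every row of the sterol enzymes except 2 of the 3 Dhcr7 windows, and the star only in Hmgcs1.

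The regulators were the group with the highest median, 28.8 CPM per kb. On the log2(CPM per kb + 0.1) scale it lay 1.79 above the median of all tested genes. Srebf2, the activator of cholesterol synthesis genes, was the highest of them. It is located on chromosome 15 at 82147181 to 82205379 (GRCm38). Its level was 668.6, 641.4 and 687.5 CPM in replicates 1, 2 and 3, or 92.7 ± 3.23 CPM per kb (SD, n = 3), above 95.25% of the tested genes. Replicate 2 was the lowest and replicate 3 the highest. Srebf1, whose count joins the isoforms of SREBP-1, stood at 171.8, 174.5 and 177.2 CPM, or 30.97 ± 0.472 CPM per kb. Srebf2 exceeded Srebf1 in every library, by a mean log2 ratio of 1.58 ± 0.05 per kb of exon, a 2.99-fold difference. The Srebf2 reads were 79.6% of the reads of both genes in replicate 1, with an exact Clopper-Pearson 95% interval of 78.9 to 80.2%. They were 78.6% (77.8 to 79.4%) in replicate 2 and 79.5% (78.8 to 80.2%) in replicate 3. Replicate 2 had the lowest share, and its interval overlapped the other two.

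Scap, the escort of both SREBPs, was at 203.7, 211.7 and 227.6 CPM, which is 28.8 ± 1.64 CPM per kb, with replicate 3 the highest. A gene model on the opposite strand overlaps 13.2% of its exon length. Insig1, the retention protein whose gene is itself a known SREBP target, was at 89.0, 89.6 and 88.6 CPM, which is 28.8 ± 0.158 CPM per kb, and had the narrowest range of the tested members (0.01 log2 units). Scap overlapped both Srebf1 and Insig1 in its library values per kb, while Srebf1 was above Insig1 in every library. The place of Scap depends on the length used. With the longest transcript as the length Scap was at 50.7 CPM per kb, ahead of Srebf1 (40.6) and Insig1 (33.0). Insig2, the second retention protein, was at 15.0, 15.5 and 13.8 CPM, or 4.25 ± 0.248 CPM per kb, below the median of the tested genes. Insig1 exceeded Insig2 by a log2 ratio of 2.76 ± 0.08 per kb (6.78-fold), in each library.

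All 7 genes of the mevalonate route, which turns acetyl-CoA into the isoprenoid farnesyl diphosphate, lay above the median of the tested genes. Their own median was 16.25 CPM per kb. Hmgcs1, which makes HMG-CoA, was the highest and was close to equal in the 3 libraries, at 199.9, 193.7 and 196.9 CPM (42.8 ± 0.673 CPM per kb). An antisense transcript overlaps 12.1% of its exon length. Idi1, the isopentenyl diphosphate isomerase, was at 93.0, 82.7 and 79.4 CPM (24.3 ± 2.02 CPM per kb), with replicate 1 above the other two. Of its 31-base stretches, 27.1% also occur in other genes, most often Gm13502, so its count is uncertain. Mvd, the decarboxylase that precedes it, was at 24.2 ± 1.87 CPM per kb and overlapped Idi1. The mevalonate and phosphomevalonate kinases Mvk and Pmvk were at 11.2 ± 0.464 and 16.25 ± 0.811 CPM per kb. Fdps, the farnesyl diphosphate synthase, was at 68.6, 70.6 and 64.7 CPM (16.15 ± 0.711 CPM per kb) and was not separable from Pmvk. The gene Gm43738 on the same strand covers 26.7% of the Fdps exon length, so its count is uncertain. The lowest was Acat2, the cytosolic thiolase that joins 2 acetyl-CoA units, at 26.52, 23.99 and 28 CPM (10.3 ± 0.796 CPM per kb). Its order against Mvk is not resolved, and 43.8% of its 31-base stretches also occur in Acat3.

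The 11 sterol genes had a median of 11.8 CPM per kb, and 8 of them lay above the median of the tested genes. Cyp51, the lanosterol demethylase, led with 211.9, 208.1 and 198.0 CPM (46.7 ± 1.62 CPM per kb). Sqle, the squalene epoxidase and a known control point of the route, followed at 27.8 ± 0.864 CPM per kb. Fdft1, the squalene synthase that commits farnesyl diphosphate to sterols, was at 84.2, 84.5 and 82.0 CPM (19.8 ± 0.322 CPM per kb). Exons of Ctsb on the opposite strand cover 18.3% of the Fdft1 exon length, and strand use in counting is not given in the sources used here. Fdft1 and the preceding enzyme Fdps differed by a log2 ratio of 0.29 ± 0.04 per kb. With the longest transcript as the length that ratio was -0.03, so the 2 genes have no settled order.

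Of the later sterol enzymes, the demethylation genes Nsdhl and Msmo1 were at 16.8 ± 0.412 and 14.7 ± 0.815 CPM per kb. The isomerase Ebp was at 11.8 ± 1.27 CPM per kb, the desaturase Sc5d at 10.3 ± 0.766 and the final reductase Dhcr7 at 9.42 ± 0.476 CPM per kb. Ebp overlapped Sc5d, and Sc5d overlapped Dhcr7, in their library values. The cyclase Lss was at 7.85 ± 0.207 CPM per kb and the ketoreductase Hsd17b7 at 7.002 ± 0.415 CPM per kb, both just under the median of the tested genes. With the longest transcript as the length Lss moved to 12.1 CPM per kb, above 53.3% of the tested genes, and Sc5d to above 49.2% of them. That length also put Msmo1 (30.5 CPM per kb) ahead of Nsdhl (22.05). Dhcr7 (19.5 CPM per kb) likewise moved ahead of Ebp (15.65) and Sc5d (10.5). The lowest sterol gene was Tm7sf2, a sterol C14 reductase, at 8.560, 7.735 and 6.795 CPM (1.75 ± 0.201 CPM per kb). Lbr, the lamin B receptor, catalyses the same C14 reduction and was at 43.2 ± 0.313 CPM per kb, with 204.3, 205.5 and 207.3 CPM in the libraries. Tm7sf2 thus stood far below Lbr in every library. The neighbouring gene Vps51 covers 12.1% of the Tm7sf2 exon length on the same strand.

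The fatty acid genes held both the highest members and some of the lowest. Acly, which makes cytosolic acetyl-CoA from citrate for both routes, was at 552.6, 561.2 and 564.0 CPM, or 105.9 ± 1.12 CPM per kb, the highest of all members. It is located on chromosome 11 at 100476353 to 100528000. Fasn, the fatty acid synthase, lies on the same chromosome at 120805846 to 120824547. It had 937.3, 915.0 and 938.0 CPM, or 84.97 ± 1.195 CPM per kb. Replicate 2 was slightly lower than the other two. With the longest transcript as the length Srebf2 (131 CPM per kb) moved ahead of Acly (126 CPM per kb), and Fasn stayed behind both.

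Acaca, the acetyl-CoA carboxylase whose product Fasn extends, was at 85.4, 82.5 and 81.9 CPM (4.88 ± 0.110 CPM per kb). It was lower than Fasn by a log2 ratio of -4.12 ± 0.03 per kb, a 17.4-fold difference, and by -3.40 with the longest transcript as the length. Acaca has 17074 bases of annotated exon against 9513 in its longest transcript, and 31.7% of its 31-base stretches recur in the gene Gm5182.

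Among the desaturases one paralog dominated each pair. Scd2, a stearoyl-CoA desaturase, was at 99.5, 97.4 and 97.6 CPM, and Scd1, the form known from liver, at 4.94, 3.71 and 5.16 CPM. Scd2 exceeded Scd1 by a log2 ratio of 4.26 ± 0.25 per kb (19.15-fold), and it made up 95.3%, 96.3% and 94.97% of the reads of both. Of their 31-base stretches, 6.81% (Scd2) and 8.18% (Scd1) also occur in other genes. Fads1, the delta-5 desaturase, was at 46.2, 48.9 and 52.2 CPM. Fads2, the delta-6 desaturase, had 8, 10 and 14 reads, or 0.420, 0.789 and 0.951 CPM. Its exact Poisson 95% intervals were 0.181 to 0.828, 0.379 to 1.45 and 0.520 to 1.60 CPM, which overlap. The log2 ratio of Fads2 to Fads1 was -5.56 ± 0.52 per kb, so Fads1 was 47.0-fold higher. Elovl6, which lengthens palmitate, was at 17.55 ± 1.275 CPM (2.73 ± 0.198 CPM per kb).

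On the LXR side, only the receptor gene Nr1h2 had a high level. Nr1h2, which encodes the widely expressed LXR beta, was at 162.0, 156.9 and 176.9 CPM (49.3 ± 3.10 CPM per kb), above 89.7% of the tested genes and overlapping Cyp51. With the longest transcript as the length Nr1h2 was at 82.7 CPM per kb, ahead of Cyp51 at 52.4. Nr1h3, which encodes LXR alpha and is known from liver and macrophages, had 16, 14 and 10 reads, or 0.840, 1.105 and 0.680 CPM. Its exact Poisson intervals overlap across the libraries (0.480 to 1.37, 0.604 to 1.85 and 0.326 to 1.25 CPM). The log2 ratio of Nr1h2 to Nr1h3 was 7.12 ± 0.43 per kb, or 139-fold.

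Abca1, the exporter of cholesterol to lipid-poor apolipoprotein, had 12, 17 and 19 reads, or 0.630, 1.34 and 1.29 CPM. It was the lowest member per length at 0.105 ± 0.0383 CPM per kb, with replicate 1 under the other two. The exact Poisson intervals of the 3 libraries overlap (0.326 to 1.10, 0.782 to 2.15 and 0.777 to 2.02 CPM). Abcg1, the exporter to lipoprotein particles, was at 7.51, 5.92 and 8.97 CPM. It exceeded Abca1 in each library, by a log2 ratio of 3.30 ± 0.71 per kb (9.88-fold). Mylip, the LXR-induced ubiquitin ligase of lipoprotein receptors, was at 7.99 ± 0.866 CPM. The 10 monocyte and macrophage markers, cells that carry much Nr1h3, Abca1 and Abcg1, summed to 4.779, 3.946 and 4.825 CPM in replicates 1, 2 and 3. Most of this was Cd68, while 4 of the 10, Csf1r, C1qa, C1qc and Fcgr1, had no read in any library. The part of other cell types in the reads of Nr1h3, Abca1 and Abcg1 was not tested. In bulk samples, few cells with much of a transcript and many cells with little cannot be told apart.

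**Figure D3:**
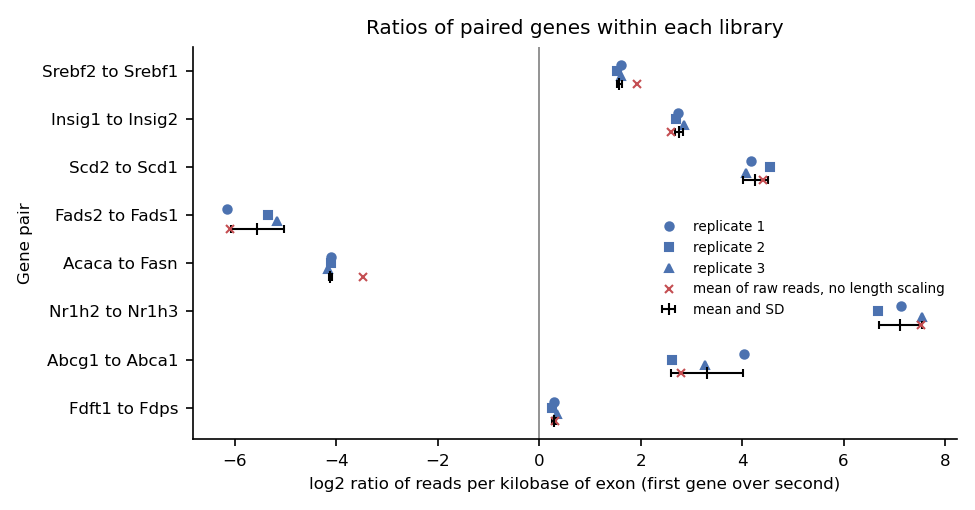
Each row is a pair of genes, and the horizontal axis is the log2 ratio of reads per kilobase of exon, first gene over second, with 1 symbol for each library. Black bars give the mean and SD over the 3 libraries and red crosses the mean ratio of raw reads without length scaling. The 3 libraries lie on the same side of 0 in all 8 pairs, from -5.56 for Fads2 to Fads1 up to 7.12 for Nr1h2 to Nr1h3.

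An exact two-sided sign-flip permutation test over the libraries gave p = 0.25 for each of the 8 ratios, raw and adjusted over the 8, the smallest p that 3 libraries allow. No ratio could therefore pass a threshold of 0.05. In each pair the ratio had the same sign in 3 of 3 libraries.

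The members differed little between the libraries. Of the 13500 genes tested, 1847 (13.7%) varied among the 3 libraries beyond counting noise, at an adjusted p under 0.05 (edgeR, likelihood-ratio test, dispersion 0). That count was 1120, 1193 and 742 without replicate 1, 2 and 3. Of the 36 members, 34 passed the filter on low counts (all but Fads2 and Nr1h3) and 4 of those (11.8%) differed, close to that background. Among genes of at least 100 CPM, where more reads let the test call smaller differences, 33.9% of 2570 genes were called, as were 3 of 9 members. The calls were Srebf2 (range 0.11 log2 units, adjusted p = 0.000111), Scap (0.17, adjusted p = 9.975e-05), Nr1h2 (0.18, adjusted p = 0.000798) and Idi1 (0.22, adjusted p = 0.00198), by edgeR. Srebf2, Scap and Nr1h2 were highest in replicate 3, and Idi1 was highest in replicate 1. All 4 calls were lost without replicate 3, with adjusted p from 0.0512 (Idi1) to 0.647 (Nr1h2), and replicate 3 was the highest library for 14 of the 34 members and for 4733 of the 13500 tested genes. The T cell markers also moved this way: they summed to 2216, 2236 and 2328 CPM in replicates 1, 2 and 3, and 5 of the 6 were highest in replicate 3. Their part in the calls was not tested. Srebf2 was also lost without replicate 2 (adjusted p = 0.0926), and Idi1 without replicate 1 (adjusted p = 0.698).

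The median range over the 34 members was 0.15 log2 units, beside 0.17 over all genes tested. None of the 11 sterol genes and none of the 7 tested fatty acid genes was called (12 of the 34 members, 35.3%, and 3749 of all tested genes, 27.8%, had an unadjusted p under 0.05). The widest ranges, 1.08 for Abca1, 0.60 for Abcg1 and 0.48 for Scd1, belonged to genes with few reads and did not pass. The summed level of the 11 sterol genes was 860.0, 843.7 and 823.8 CPM in replicates 1, 2 and 3, and that of the 7 mevalonate genes 488.3, 471.9 and 476.4 CPM. The fatty acid genes summed to 1745, 1726 and 1758 CPM. No library was highest in all 3 groups. The regulators summed to 1148, 1133 and 1195 CPM and the LXR and efflux genes to 179.0, 172.4 and 196.7 CPM, both highest in replicate 3.

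**Figure D4:**
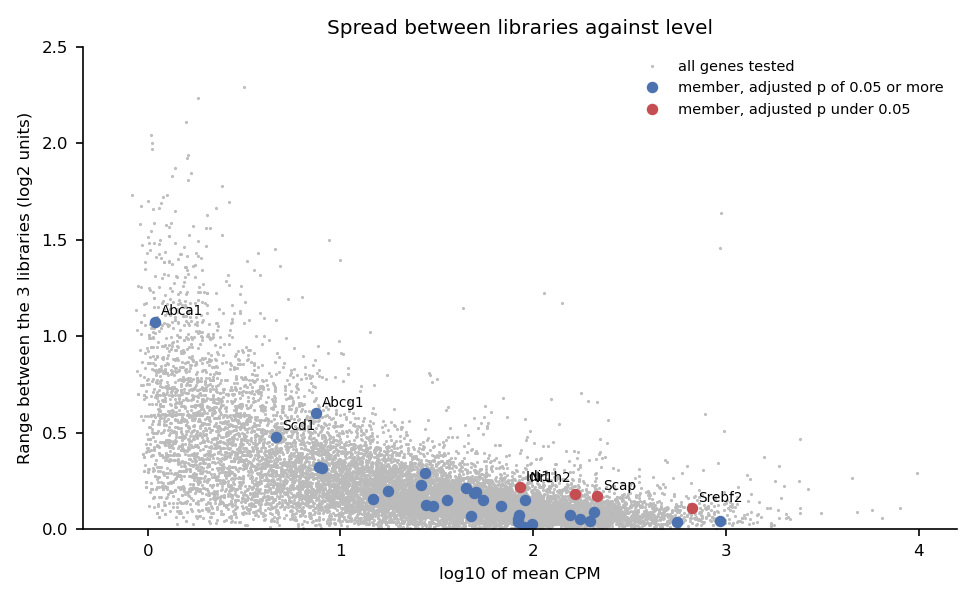
Each grey point is 1 of the genes tested, with the log10 of its mean CPM on the horizontal axis and its range between the 3 libraries in log2 units on the vertical axis. Blue points are members that did not pass the test and red points the 4 that did (Idi1, Nr1h2, Scap and Srebf2). The members lie within the grey cloud, and their range is wider at low CPM. The axis ends at 2.5, beyond which 3 genes lie.

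A further 53 genes of the pathway were read in 5 lists. Of these, 44 passed the filter and 6 (13.6%) differed between the libraries, beside 13.7% of all genes. Among genes that process SREBPs or act with them, all 10 were above 10 CPM. The lowest per length was Mbtps2, the site-2 protease, at 3.08 ± 0.179 CPM per kb, although Yy2 overlaps 28.4% of its exon length. The NF-Y subunit genes Nfya, Nfyb and Nfyc, whose box is marked in the promoters above, were at 9.40 ± 0.579, 6.57 ± 0.723 and 12.9 ± 1.01 CPM per kb. Nfyb was called as differing between the libraries (33.8, 36.7 and 29.4 CPM, edgeR adjusted p = 0.0382).

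Of the 10 other sterol and isoprenoid enzymes, 5 were under 1 CPM. Ch25h, Cyp27a1 and Cyp7b1, enzymes that make or break down oxysterols, had no read in any library. Idi2, the paralog of Idi1, had 11, 11 and 12 reads against 1771, 1048 and 1169 for Idi1, which was thus the abundant paralog in every library.

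All 8 cholesterol storage and transfer genes were above 10 CPM. Npc2, the lysosomal cholesterol carrier, led at 79.2 ± 1.17 CPM per kb, and Scarb1, a lipoprotein receptor, was lowest at 4.02 ± 0.388 CPM per kb. Soat1 and Soat2, the cholesterol esterifying enzymes, were at 4.35 ± 0.390 and 9.19 ± 0.0770 CPM per kb. Lipa, the lysosomal cholesterol ester hydrolase, differed between the libraries (44.2, 36.7 and 38.5 CPM, edgeR adjusted p = 0.0252).

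Of the 17 other fatty acid and lipid enzymes, Elovl1, an elongase of very long chains, was highest at 44.2 ± 3.24 CPM per kb. It was called as well (112.5, 119.3 and 130.0 CPM, edgeR adjusted p = 0.000251), as were the acyl-CoA synthetase gene Acsl5 (181.3, 196.7 and 191.6 CPM, adjusted p = 0.0297) and Scd3 (20, 7 and 27 reads, adjusted p = 0.0457). Of the 31-base stretches of Scd3, 15.2% also occur in other genes, most often Scd1, so its low count is uncertain. Slc25a1, the citrate carrier that feeds Acly, was at 22.1 ± 0.616 CPM per kb. Acss2, which makes acetyl-CoA from acetate instead, was at 0.578 ± 0.0904 CPM per kb, far under Acly. Me1, the cytosolic malic enzyme, was lowest with 3, 0 and 0 reads. Acacb, the paralog of Acaca, was at 6.40 ± 0.355 CPM.

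Among the LXR partners, Rxrb was the highest at 23.5 ± 0.706 CPM per kb. Rxra was at 5.19 ± 0.820 CPM per kb and did not overlap Rxrb in any library. It was called as differing between the libraries (23.74, 28.65 and 32.69 CPM, edgeR adjusted p = 0.0001075). Rxrg had 1 read in all. Of the LXR targets outside the members, Abcg8 had no read, Abcg5 had 2, 0 and 0 reads, and Lpcat3, a phospholipid remodelling enzyme, was at 15.5 ± 0.773 CPM per kb. Smpdl3a and Arl4c were at 4.70 ± 0.668 and 7.23 ± 0.0741 CPM per kb. Of these targets Lpcat3 lay above the median of the tested genes and the others below it.

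**Figure D5:**
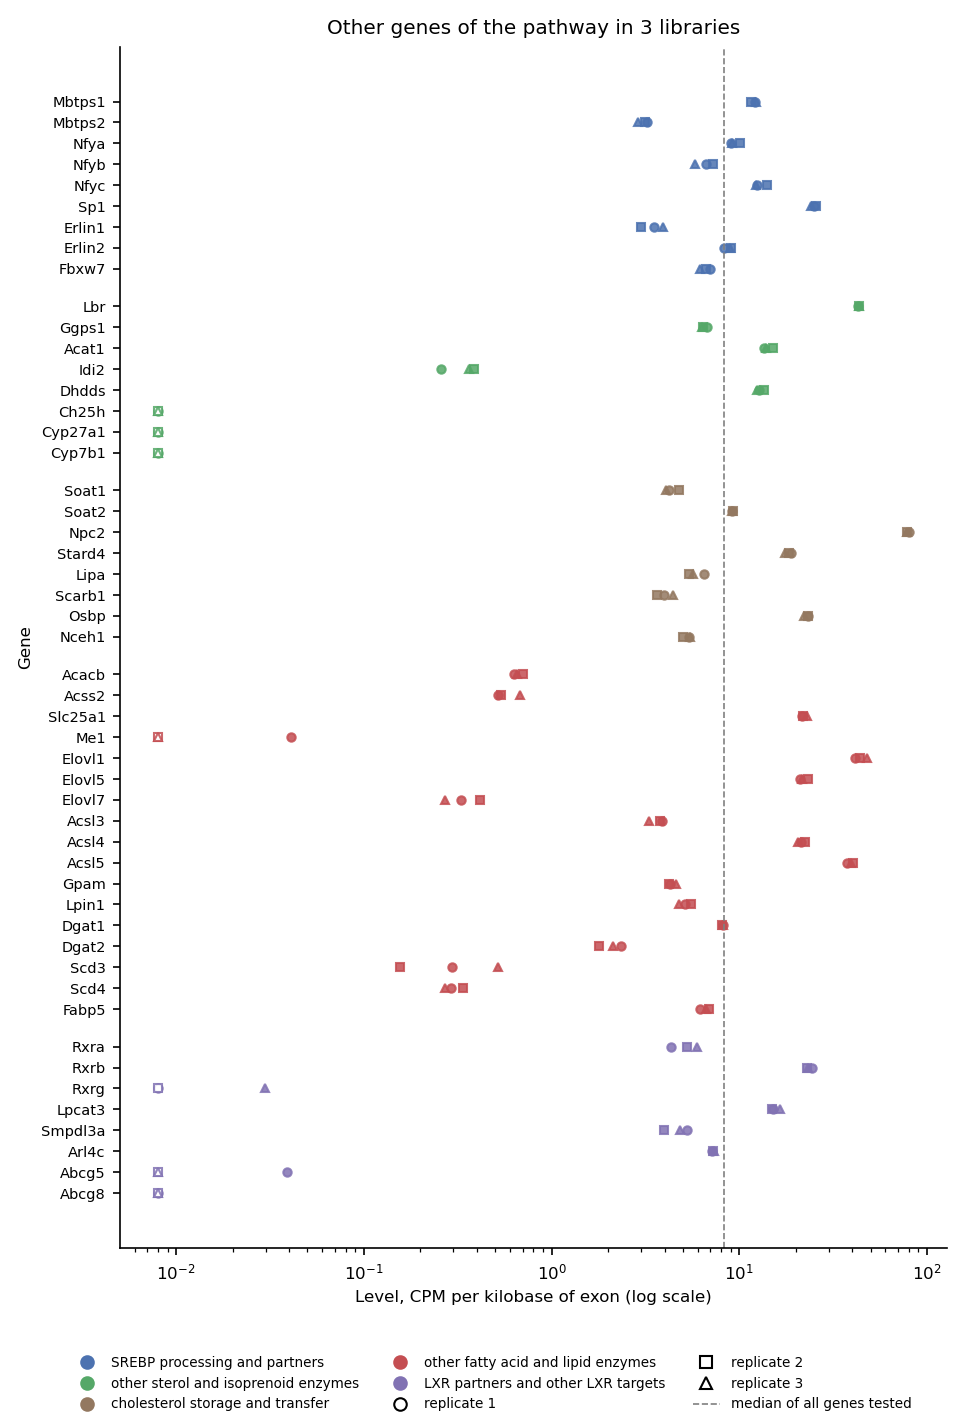
Each row is one of the other pathway genes and each symbol is its level in 1 library, in CPM per kilobase of exon on a log axis, with colour for the list. Hollow symbols at the left edge stand for libraries with no read, and the dashed line is the median of all genes tested, 8.27 CPM per kb. Ch25h, Cyp27a1, Cyp7b1 and Abcg8 have hollow symbols in all 3 libraries, while Npc2 lies furthest to the right.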

How the data were processed

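The authors deposited raw counts for each gene symbol in 1 table with a column for each of the 3 libraries. Per the labels' protocols, libraries were made with an Ion Proton RNA-seq kit, and the submitters' processing notes name the build mm10. Not given in the sources used here are the aligner, counter and annotation, strand use, and how reads with several matches were treated. The members and lists were chosen with earlier results of these data known.

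CPM used library totals of 12669690, 14715992 and 19041670 counts. Exon lengths (union of exons), positions, overlaps and shared 31-base stretches came from GENCODE vM21 (GRCm38, the assembly of mm10), and 32204 of 44788 symbols had a length. BALB/c differs from the reference strain. With 1 group no contrast could be fitted. Any difference between libraries was tested over all genes that reached 1 CPM in 2 or more of them, by a likelihood-ratio test (edgeR 4.0.16, glmFit, TMM, dispersion 0, Benjamini-Hochberg). It compares these libraries only. The simulated data on which it was tried had only counting noise besides the changes put in. That trial therefore cannot speak for other noise between libraries. Ratios had 0.5 added to each count. Values in every library were given, by rule, for the highest and lowest member of each group, the 8 pairs, called members and members under 1 CPM. Lbr, Idi2 and other further genes set beside a member were chosen after their values were seen. Some listed genes that enter the counts are not reported here by name or drawn. Alternatives were DESeq2 1.42.0 size factors, unscaled totals, other filters, lengths and pseudocounts, means, and each library left out. R 4.3.3 and Python 3.11.15 were used.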

Additional observations from a re-analysis of the deposited data

How the results depend on the processing

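No paired analysis was possible because only 1 group exists. Of the 8 ratios, 7 kept their sign under every alternative, and Fdft1 to Fdps turned to -0.03 with the longest transcript as the length. DESeq2 size factors, unscaled totals, no low-count filter and a minimum of 10 CPM left 4 members called in each case. The restriction to members with under 5% shared 31-base stretches, chosen after seeing the data, left 2 of 23, and fewer genes entered it. With a library left out, 0 to 4 members, 2 to 5 of the other pathway genes and 742 to 1193 of all genes were called, and each such test had fewer samples. The 4 members called without replicate 1 did not include Idi1, so they were not the same set. Without a low-count filter 3 of the other pathway genes were called in place of 6. The group medians, on the log2(CPM per kb + 0.1) scale, moved with the scaling. With the longest transcript they were 5.35 (regulators), 4.55 (mevalonate), 4.29 (sterol), 3.49 (fatty acid) and 0.46 (LXR and efflux), against 4.85, 4.03, 3.57, 2.84 and 0.17. As CPM without length they were 7.45, 5.49, 5.78, 6.0 and 2.92. Against the median of all genes tested, the fatty acid group turned from -0.22 to 0.04 with the longest transcript and to 1.12 without length, and the other 4 groups kept their side. Means over members gave 4.66 (regulators), 4.22 (mevalonate) and 0.74 (LXR and efflux). A pseudocount of 1 gave 4.11 (mevalonate), 3.02 (fatty acid) and 1.02 (LXR and efflux). The sterol and fatty acid means and the medians under TMM sizes or without a library moved by less than the SD over the libraries. Depth limits Fads2, Nr1h3 and Abca1, with 8 to 19 reads per library.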
